A study of Mus musculus with 10 samples.

Results

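The genes described here encode the presynaptic vesicle and its release machinery. They are 37 listed genes, found by symbol in the gene tables, and all 37 were present among 24972 genes and passed the filter on low counts. Cortex RNA came from male C57BL/6 mice aged 2.5 months. There were 5 animals labelled Atad3 nKO and 5 labelled Atad3 control, which were littermates, with 1 library per animal. The labels do not say what nKO stands for, which promoter drove a deletion, or which cells carried it. Libraries are called control 1 to 5 and nKO 1 to 5, and the numbers only name them. A library held about 14812600 to 24161400 estimated counts. Atad3a, which encodes a mitochondrial inner membrane ATPase, fell to 8.95 to 14.4 CPM (counts scaled to a common library size, with TMM factors) in nKO libraries from 22.2 to 26.6 CPM in controls. Its log2 fold change was -1.04 with an adjusted p of 0.00634 (edgeR quasi-likelihood F test, 5 against 5). Markers of cortical excitatory neurons summed to 1863 to 2970 CPM in controls and 2224 to 2650 CPM in nKO, and those of inhibitory neurons to 1102 to 1253 CPM and 1120 to 1204 CPM. The tissue label therefore had its neuronal markers in every library.

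Neurons release transmitter when a calcium signal makes a docked vesicle fuse with the presynaptic membrane. SNARE proteins on the vesicle and on the plasma membrane zip together to drive fusion, synaptotagmins sense the calcium, and active zone scaffolds hold vesicles beside calcium channels. Fused vesicle membrane is then retrieved by clathrin adaptors, membrane-bending proteins and dynamin. Most cortical neurons contribute such transcripts. In tissue RNA, fewer neurons and less of a transcript per neuron cannot be told apart.

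The difference between nKO and control passed the test in none of the 37 genes. In the edgeR quasi-likelihood F test, 0 of 37 passed an adjusted p of 0.05, and 0.0139% of all 14378 tested genes did, which were 2 genes. At an unadjusted p under 0.05 there were 2 of the 37 (5.41%), beside 5.65% of all tested genes. These were Syt7, higher in nKO as were 3.36% of all tested genes at that p, and Amph, lower in nKO as were 2.29%, each with an adjusted p of 0.820. DESeq2 and limma-voom also called 0 of the 37. They gave 2 and 3 of the 37 an unadjusted p under 0.05, beside 837 and 896 of all 14378 tested genes. In 0 of 37 were all nKO libraries on 1 side of all controls in CPM, against 1.38% of all tested genes.

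The differences can be set beside those of all genes. The log2 fold change was above 0 in 20 genes and below 0 in 17, and 47.8% of all tested genes were above 0. Its median was 0.0062 over the 37 genes and -0.0078 over all tested genes. The median size without regard to sign was 0.071, against 0.098 over all tested genes. Precision was also better than for a typical gene, with a median SE of 0.096 against 0.12. The 95% interval lay within a 1.5-fold change for 33 of the 37 (89.2%) and for 75.7% of all tested genes. It lay within a 2-fold change for all 37. The 4 genes with an interval beyond 1.5-fold were Syn1, Bsn, Syt4 and Syt7, named after their values were seen. The plot of log2 fold changes shows each gene with its interval.

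**Figure D1:**
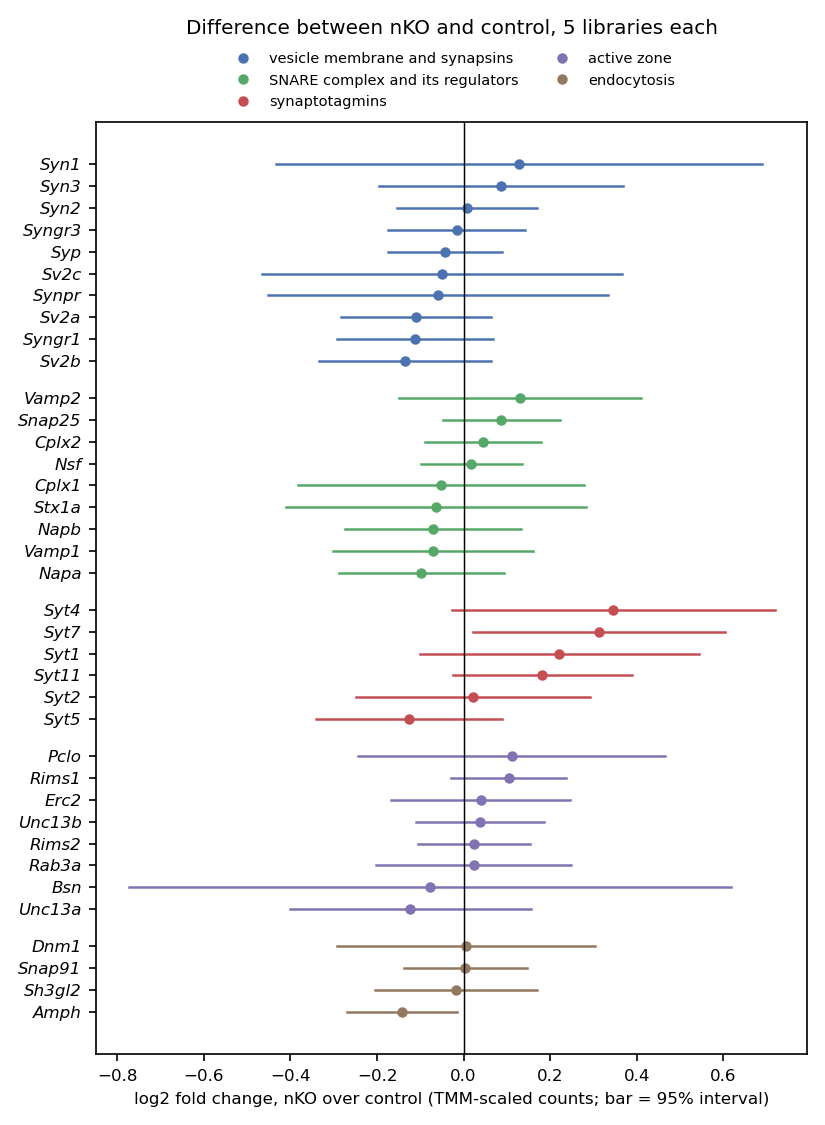
Log2 fold change of each of the 37 genes between 5 nKO and 5 control libraries, with points for estimates and bars for 95% intervals from the edgeR fit, coloured by role. The bars of Syt7 and Amph do not cross 0, and their adjusted p is 0.820; Bsn has the widest bar (-0.77 to 0.62).

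Direction depended on the unit. On the TPM scale (a transcript level corrected for length), 29 of the 37 genes had a higher mean in nKO, as did 64.2% of all tested genes. The median log2 ratio of mean TPM was 0.074 for the 37 genes and 0.047 for all. Only Cplx2, a complexin of the family that binds the assembled SNARE complex, had all nKO libraries above all controls in TPM, beside 2.56% of all tested genes. The mean of Cplx2 was 458 ± 24.3 TPM in control libraries and 504 ± 14.9 TPM among the nKO ones (SD over 5 libraries each). The 37 genes together made up 1.44 ± 0.0706% of TPM (SD, n = 5) in controls, from 1.33% to 1.51%, and 1.54 ± 0.0321% (SD, n = 5) in nKO, from 1.51% to 1.59%. Those ranges overlapped. The log2 fold change from counts went with effective length over genes, which do not count as independent replicates. Spearman's rho was 0.336 over all tested genes and 0.247 over the 37. Among the 3595 genes with the longest transcripts the median log2 fold change was 0.047, and 15 of the 37 were among them, with 11 above 0. Among the 3595 shortest the median was -0.083, and 3 of the 37 were among those.

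Levels of the 37 genes spanned a wide range in the control cortex. Snap25, the plasma membrane SNARE with a pair of SNARE motifs, was at 3999 ± 219 TPM (SD, n = 5) and ranked 6 among all genes. Every control library had more Snap25 than any had of the next gene. Syt1, the calcium sensor of fast synchronous release, had 1024 ± 259.6 TPM and Syp, the vesicle membrane protein synaptophysin, 991 ± 82.0 TPM (both SD, n = 5), and their ranges overlapped. Dnm1, the dynamin that severs endocytic buds, followed at 634 ± 50.2 TPM with a range below that of Syp. From Dnm1 down to Pclo at 74.2 ± 14.7 TPM, each gene overlapped the next in the order. At the low end, Unc13b (38.9 ± 3.49 TPM), Syt2 (28.2 ± 3.09 TPM) and Syn3 (11.2 ± 1.76 TPM) each stood below the range of the gene before. Sv2c was last at 8.77 ± 2.44 TPM (all SD, n = 5) and overlapped Syn3.

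**Figure D2:**
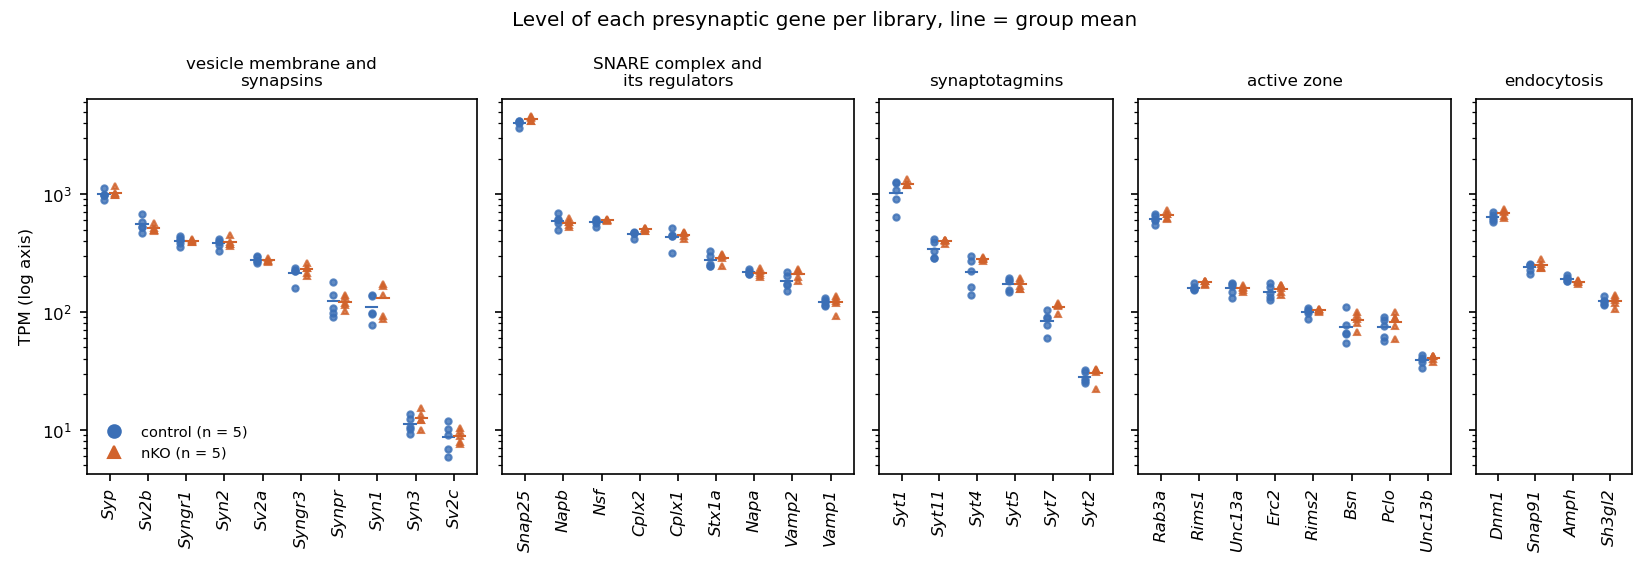
TPM on a log axis for each of the 37 genes in every library, with circles for 5 controls, triangles for 5 nKO libraries and short lines for group means, in panels by role. Snap25 stands above every other gene, and Syn3 and Sv2c lie near 10 TPM; the nKO and control points interleave in nearly every gene, with Cplx2 the exception.

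Within families, 1 paralogue led in most cases. In all 10 libraries the TPM of Syn2 was above that of Syn1, with a ratio of 3.67 ± 1.02 in controls and 3.24 ± 1.03 in nKO (SD, 5 libraries per group). Sv2b exceeded Sv2a by 1.99 ± 0.320 in controls and 1.87 ± 0.173 in nKO. Unc13a exceeded Unc13b by 4.12 ± 0.691 and 3.89 ± 0.262. The same held in all 10 libraries for Vamp2 over Vamp1, Syt1 over Syt2, Rims1 over Rims2, Napb over Napa and Syngr1 over Syngr3. Syt1 over Syt2 was the widest of these, at 36.7 ± 10.4 in controls and 41.3 ± 6.87 in nKO. Cplx2 over Cplx1 was above 1 in 8 libraries, and Bsn over Pclo in 6. For all 12 ratios computed, nKO and control ranges overlapped.

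Among 10 genes of the vesicle membrane and the synapsins, 3 had a log2 fold change above 0 and 7 below in counts, with a median of -0.047. In TPM the log2 ratios of Syp, Syngr3 and Sv2c were instead above 0, at 0.051, 0.11 and 0.019. The others of this group kept their direction, with Sv2a at -0.020 and Syngr1 at -0.0011. The synapsins are phosphoproteins that hold vesicles in clusters, and SV2 proteins are vesicle glycoproteins of which SV2A binds the antiepileptic drug levetiracetam. Sv2b (chr7:75114894-75309262; all positions are GRCm38, the assembly of mm10) had 1028, 1229.7, 1465, 1140.4 and 1098 CPM in controls 1 to 5 and 1038, 1093, 1027, 1224 and 1046 CPM in nKO 1 to 5. The highest library was control 3, and the nKO values lay inside the control range except for nKO 3, which was just below it. Its log2 fold change was -0.14 ± 0.092 (SE), with an adjusted p of 0.845.

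Sv2a (chr3:96181227-96195183) measured 424, 348, 352, 399 and 405 CPM in the controls and 372, 366, 387, 307 and 354 CPM in nKO. Only nKO 4 lay below the lowest control. Syngr1 (chr15:80091334-80119501), a synaptogyrin of the vesicle membrane, showed 599, 477, 515, 582 and 534 CPM in the controls and 526, 546, 518, 426 and 488 CPM in nKO, and again nKO 4 was the lowest of all. The log2 fold changes of Sv2a and Syngr1 were -0.11 ± 0.080 and -0.11 ± 0.084 (SE), with adjusted p of 0.854 and 0.858. Syp (chrX:7638580-7653256) was steady, at 858, 735, 827, 761 and 764 CPM in the controls and 748, 789, 754, 789.6 and 746 CPM in nKO. All nKO values of Syp were inside the control range, and its log2 fold change was -0.044 ± 0.061 (SE, adjusted p = 0.921).

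The other members of this group gave log2 fold changes from -0.060 for Synpr, a relative of synaptophysin, to 0.13 for Syn1. Syn1 varied widely within both groups. It ran from 62.1 to 150.5 CPM in controls and from 71.2 to 138 CPM in nKO, and its interval was -0.43 to 0.69. Syn2 held between 473 and 562 CPM in controls and 478 and 596 CPM in nKO. Synpr had a coefficient of variation of 31.1% in controls, with control 3 at 161 CPM and control 4 at 75.5 CPM.

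Of 9 SNARE genes and their regulators, 4 were above 0 and 5 below in counts, with a median log2 fold change of -0.052. In TPM the log2 ratios of Stx1a and Cplx1 were instead above 0, at 0.075 and 0.065, and the others kept their direction. Snap25 (chr2:136713439-136782428) had 2859, 3009, 3115, 3086 and 2929 CPM in the 5 controls and 3234, 2929.9, 2993, 3314 and 3466 CPM in the 5 nKO libraries. The values of nKO 1, nKO 4 and nKO 5 were above every control, and those of nKO 2 and nKO 3 were inside the control range. The log2 fold change was 0.088 ± 0.062 (SE) with an adjusted p of 0.849, and its 95% interval was -0.047 to 0.22.

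Snap25 is made in alternative forms that differ by mutually exclusive copies of 1 coding exon. The form with the downstream copy is known as SNAP25b, which takes over as the brain matures, and the form with the upstream copy as SNAP25a. In GENCODE on GRCm38, the transcripts matching NM_011428 and NM_001291056 differed in 1 of 7 coding exons, exon 5, which is 118 bases long in both. NM_011428 uses chr2:136770057-136770174 and NM_001291056 uses chr2:136769743-136769860, both on the + strand. The exons are shown because reads over them are what tells the forms apart, and capitals mark the 31 bases that differ, which leaves 73.7% identity.
NM_011428: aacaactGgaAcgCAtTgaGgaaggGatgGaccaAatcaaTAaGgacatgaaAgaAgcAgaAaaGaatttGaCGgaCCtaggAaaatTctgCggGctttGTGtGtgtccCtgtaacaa
NM_001291056: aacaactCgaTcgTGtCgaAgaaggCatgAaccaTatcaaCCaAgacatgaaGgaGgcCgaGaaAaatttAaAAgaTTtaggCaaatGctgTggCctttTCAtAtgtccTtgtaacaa

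The downstream form made up nearly all Snap25 transcript in both genotypes. NM_011428 had 3349, 3676, 3858, 3783 and 3681 TPM in controls 1 to 5 and 4122, 3717, 3784, 4009 and 4289 TPM in nKO 1 to 5. NM_001291056 had 252, 354, 262, 348 and 319.9 TPM in the controls and 338, 419.7, 329, 387 and 287 TPM in nKO. For both forms the groups overlapped. The NM_001291056 share of the gene's TPM was 7.67 ± 1.005% in controls and 8.12 ± 1.43% in nKO, and that of NM_011428 was 91.8 ± 1.01% and 91.4 ± 1.49% (SD over 5 libraries each). Relative use of Snap25 transcripts did not pass the diffSpliceDGE test (Simes adjusted p = 0.99999 over all genes tested). The shares rest on how Salmon divided reads between transcripts that share their other coding exons.

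**Figure D3:**
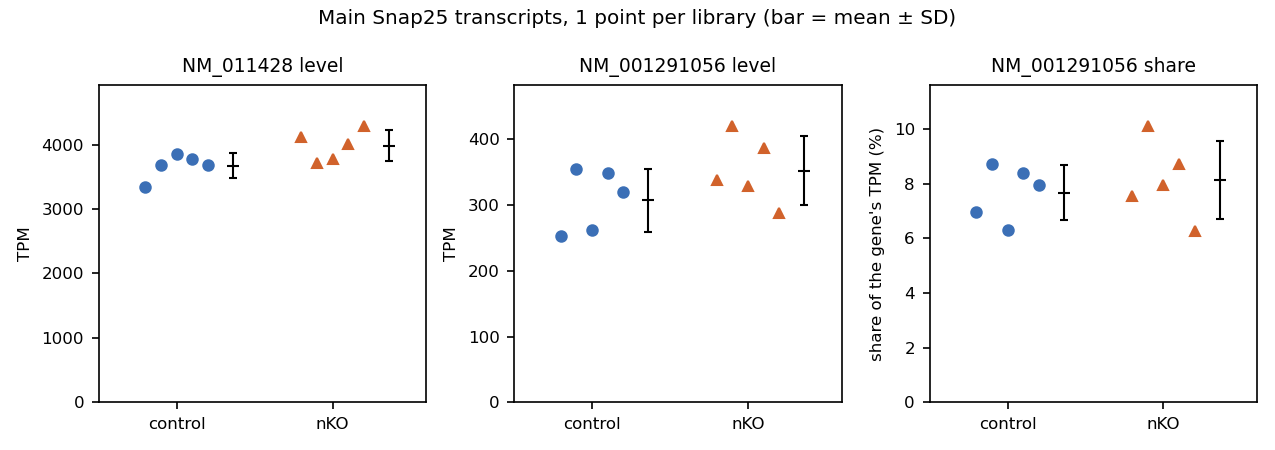
TPM of the main Snap25 transcripts, NM_011428 and NM_001291056, and the share of NM_001291056 in percent of the gene's TPM, with 1 point per library and mean ± SD bars for 5 controls (circles) and 5 nKO libraries (triangles). The share of NM_001291056 lies between 6.32% and 8.72% in controls and between 6.26% and 10.1% in nKO.

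Napa (chr7:16098202-16117982) encodes alpha-SNAP, which brings the ATPase NSF to spent SNARE complexes so that they come apart. Its values were 208, 168, 167, 185 and 192 CPM in controls and 191, 176, 183, 144 and 165 CPM in nKO, for a log2 fold change of -0.098 ± 0.088 (SE, adjusted p = 0.869). As with Sv2a and Syngr1 in CPM, nKO 4 was lowest. In TPM that library was still lowest for Napa, but control 1 was lowest for Sv2a and Syngr1. Vamp2 (chr11:69088528-69092381), the vesicle SNARE of most forebrain synapses, had 185, 123, 109, 149 and 122 CPM in controls and 161, 144, 166, 151 and 131 CPM in nKO. Every nKO value of Vamp2 lay within the control range, whose ends were control 3 and control 1. Vamp2 had a log2 fold change of 0.13 ± 0.13 (SE, adjusted p = 0.881). Nsf itself was among the steadiest of the genes, at 870.2 ± 38.6 CPM in controls and 881 ± 11.7 CPM in nKO (SD, 5 libraries per group). The remaining log2 fold changes ran from -0.071 for Vamp1 to 0.045 for Cplx2.

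The synaptotagmins stood highest of the role groups in their estimates. Of 6 genes, 5 had a log2 fold change above 0, and the median was 0.20, but 0 passed the adjusted threshold. Syt7 (chr19:10388802-10453181), a slow, high-affinity calcium sensor for asynchronous release and facilitation, had 207, 185, 125, 226 and 197 CPM in controls 1 to 5 and 238, 262, 247, 217 and 203 CPM in nKO 1 to 5. Control 3 was the lowest of the 10 libraries, nKO 1, nKO 2 and nKO 3 were above every control, and the groups overlapped. The log2 fold change was 0.31 ± 0.13 (SE), with an unadjusted p of 0.0368 and an adjusted p of 0.820 (edgeR).

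Syt4 (chr18:31437808-31447415) and Syt11 (chr3:88744699-88775159) encode synaptotagmins that lack a conserved calcium-coordinating residue. Syt4 measured 234, 311, 196, 407 and 370.0 CPM in controls and 379, 364, 359, 418 and 409 CPM in nKO. Controls 1 to 3 were below every nKO library, while control 4 and control 5 were inside the nKO range. Syt11 gave 551, 559, 488, 721 and 667 CPM in controls and 695, 703, 693, 657 and 639 CPM in nKO, with controls 1 to 3 below every nKO library and control 4 above them all. Their log2 fold changes were 0.35 ± 0.17 and 0.18 ± 0.096 (SE), with an adjusted p of 0.820 for both.

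Syt1 (chr10:108497650-109010980) had 1691, 1885, 1135, 2235 and 2138 CPM in controls and 2026, 1996, 2079.7, 2377 and 2112 CPM in nKO, for a log2 fold change of 0.22 ± 0.15 (SE, adjusted p = 0.843). Control 3 stood well below the rest, and control 4 and control 5 were inside the nKO range. Syt2, the fast sensor of many inhibitory and hindbrain synapses, was at 74.7 ± 12.7 CPM in controls and 75.9 ± 10.5 CPM in nKO. Syt5 was at 83.9 ± 10.5 and 76.8 ± 7.73 CPM (SD over 5 libraries each) and had a log2 fold change of -0.13.

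The estimates for Syt1, Syt4, Syt7 and Syt11 shared their low library. Control 3 was lowest of all 10 libraries in Syt1, Syt4, Syt5, Syt7 and Syt11. Averaged over the synaptotagmins, control 3 lay 0.50 below the mean of the 10 libraries on the log2 scale, and no nKO library was below the mean. Without control 3 the log2 fold changes were 0.092 for Syt1, 0.22 for Syt4, 0.20 for Syt7 and 0.12 for Syt11. Each was smaller than with it, but leaving out the lowest control must lower such estimates. Their fall therefore does not test whether control 3 accounts for them, and all of them stayed above 0. In that fit 3 of all listed genes had an unadjusted p under 0.05 (edgeR), with Syt7 higher and Syt5 and Amph lower in nKO. Amph is not a synaptotagmin. Of all 14451 genes tested there, 700 had such a p. The lowest adjusted p of any listed gene was 0.847. The excitatory neuron markers, 7 of 11 higher in nKO and 0 of 11 past the adjusted threshold, also summed lowest in control 3, at 1863 CPM, against 2077 to 2970 CPM in the other controls and 2224 to 2650 CPM in nKO. Camk2a and Slc17a7 were the largest of these markers, with control means of 1145 and 485 CPM. Slc17a7 is also among the vesicle loading genes described below. Astrocyte markers went the other way, with their highest sum in control 3, at 1930 CPM. The part of either marker set in the synaptotagmin values was not tested.

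**Figure D4:**
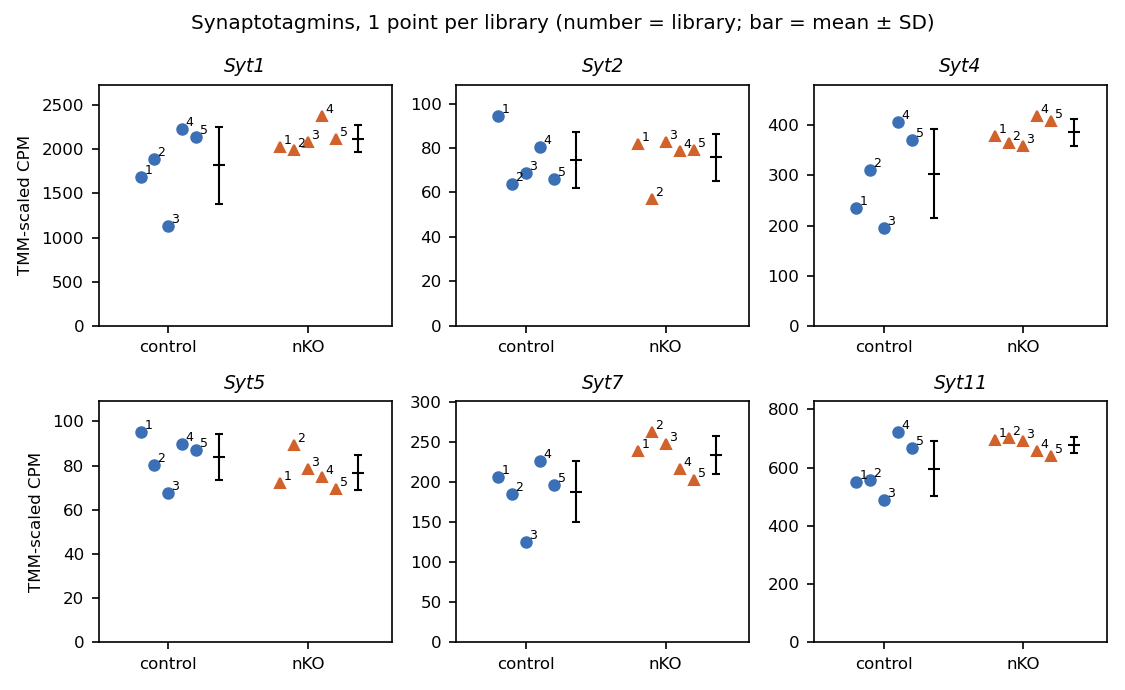
TMM-scaled CPM of the 6 synaptotagmins in each library, numbered within its group, with mean ± SD bars for 5 controls (circles) and 5 nKO libraries (triangles). Control 3 is the lowest point for Syt1, Syt4, Syt5, Syt7 and Syt11, and the nKO points of Syt1, Syt4 and Syt11 lie close together.

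Promoters of Syt1 and Syt11 are shown as those with an entry in the RefSeq promoter table among the 5 synaptotagmins lowest in control 3, and they were chosen after their values were seen. Both run over the 250 bases before a RefSeq start site on the - strand of GRCm38.p6, at chr10:109010976-109011225 for Syt1 and chr3:88772600-88772849 for Syt11. Syt1 has another start whose window held neither motif. Capitals mark a match, read on the opposite strand, to GGACAG, the right part of RE1, the element bound by the repressor REST, which silences neuronal genes outside neurons.
Syt1: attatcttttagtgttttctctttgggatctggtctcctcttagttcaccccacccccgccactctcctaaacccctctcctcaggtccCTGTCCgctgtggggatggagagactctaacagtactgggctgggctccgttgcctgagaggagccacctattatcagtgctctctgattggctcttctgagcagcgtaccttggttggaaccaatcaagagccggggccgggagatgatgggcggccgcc
Syt11: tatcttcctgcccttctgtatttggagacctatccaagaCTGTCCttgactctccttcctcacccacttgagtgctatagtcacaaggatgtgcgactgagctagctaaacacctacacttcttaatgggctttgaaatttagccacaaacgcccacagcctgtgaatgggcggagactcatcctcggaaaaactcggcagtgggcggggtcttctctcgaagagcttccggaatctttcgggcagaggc
Windows of 300 bases were searched on both strands for this motif and for the left part, CAGCACC, and the motifs do not overlap each other. RefSeq promoters matched 29 of the 37 genes, with 37 start sites. GGACAG was in 8 of these 37 windows (21.6%) and in 22.2% of 32851 windows of all genes. The right part was also held by Syt2, which was not lowest in control 3. CAGCACC was in 4 (10.8%), those of Napa, Sv2c, Syn1 and Unc13a, and in 7.14% of all windows.

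Among 8 active zone genes, 6 were above 0 and 2 below, with a median log2 fold change of 0.031. Rims1 (chr1:22285972-22806158) encodes RIM1, which ties vesicles and calcium channels to the release site. It had 414, 419.8, 367, 375 and 382 CPM in controls and 430.1, 400.0, 409, 431 and 436 CPM in nKO. The controls split into a lower set, control 3 to control 5, and a higher pair that overlapped the nKO values. Rims1 had a log2 fold change of 0.10 ± 0.062 (SE, adjusted p = 0.826).

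Unc13a (chr8:71624125-71671774) encodes Munc13-1, which primes vesicles for fusion. Its counts were 571, 386, 403, 327 and 366 CPM in controls and 415, 369, 403, 335 and 362 CPM in nKO. In CPM control 1 was far above the other 9 libraries. In TPM it was at 175.7, close to control 3 at 172.3 and nKO 1 at 169.6. Pclo (chr5:14514906-14863465), a giant scaffold of the active zone, had 671, 604, 542, 434 and 391 CPM in controls and 611, 523, 606, 699 and 415 CPM in nKO, with wide and overlapping groups. Rab3a (chr8:70754703-70758608), the vesicle GTPase that binds RIM, gave 323, 257, 229, 298 and 289.7 CPM in controls and 295, 323, 302, 236 and 264 CPM in nKO, all of the latter inside the control range. Their log2 fold changes were -0.12 ± 0.13, 0.11 ± 0.16 and 0.023 ± 0.10 (SE), with adjusted p of 0.885, 0.928 and 0.982.

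Bsn, the partner scaffold of Pclo, had the largest spread of the 37 genes in control CPM, with a coefficient of variation of 60.7%. In TPM its relative spread was smaller, at 75.1 ± 21.8 in controls (SD, n = 5). Control 1 had 683 CPM and the other controls 208 to 274 CPM, while nKO ran from 241 to 383 CPM. Its log2 fold change was -0.078 ± 0.32 (SE, adjusted p = 0.981) and was 0.37 without control 1, with 0 of 37 genes past the adjusted threshold there as well. Bsn was named after its values were seen. Rims2, Unc13b and Erc2, which encodes a scaffold of the ELKS family, had log2 fold changes between 0.024 and 0.040.

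The 4 genes of endocytosis were evenly divided, 2 above and 2 below 0, with a median log2 fold change of -0.0069. Amph (chr13:18948142-19154032) encodes amphiphysin, a membrane-bending protein that recruits dynamin. It measured 242, 241, 229, 219.9 and 227 CPM in controls and 209, 222, 201, 206 and 213 CPM in nKO. All nKO libraries but nKO 2 were below every control. The log2 fold change was -0.14 ± 0.059 (SE), with an unadjusted p of 0.0312 and an adjusted p of 0.820 (edgeR). On the TPM scale Amph was at 192 ± 9.96 in controls and 179.9 ± 5.45 in nKO (SD, 5 libraries per group), also lower.

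Sh3gl2 (chr4:85205456-85389380), endophilin A1, had 152, 129.8, 122, 131 and 122 CPM in controls and 130.0, 122, 142, 142 and 112 CPM in nKO. The lowest was nKO 5 and the highest control 1. Snap91 (chr9:86765923-86880734) encodes AP180, a clathrin adaptor that helps retrieve synaptobrevin. It showed 350.4, 339, 308, 358 and 350.2 CPM in controls and 328, 322, 359.9, 367 and 333 CPM in nKO, with control 3 lowest and nKO 4 highest. Dnm1 (chr2:32308471-32353349) had 875, 544, 563, 628 and 554 CPM in controls and 679, 684, 719.8, 508 and 587 CPM in nKO. In CPM control 1 stood apart at the top, but in TPM it was below nKO 1, nKO 2 and nKO 3. The log2 fold changes of Sh3gl2, Snap91 and Dnm1 were -0.018 ± 0.087, 0.0038 ± 0.066 and 0.0062 ± 0.14 (SE), with adjusted p of 0.985, 0.996 and 0.997.

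In TMM-scaled CPM, a few libraries set the ends of many of these genes. Control 1 was the highest of 10 libraries in 19 of the 37 (51.4%), beside 25.6% of all tested genes. It was the lowest in 6 (16.2%), among them Snap25, Syn2 and Napb, beside 19.5% of all tested genes. Control 3 was the lowest in 12 (32.4%), beside 18.6% of all tested genes. In TPM, of the 19 genes above, only Sv2c, Bsn and Unc13a were highest in control 1. That library had the smallest share of its TPM in the 37 genes, at 1.33%. The libraries nKO 4 and control 1 had the extreme scores on the first principal component of all genes, at 29.8 and -46.8. Without both, 22 of the 37 log2 fold changes were above 0 and the median was 0.047, beside -0.0067 over all genes tested there. Then 6 of the 37 (16.2%) had an unadjusted p under 0.05, beside 9.12% of all genes tested there, and 0 passed the adjusted threshold. The 6 were Sv2b, Vamp2, Napb, Syt7, Bsn and Dnm1. In CPM control 1 was the highest library for Vamp2, Bsn and Dnm1 and the lowest control for Sv2b and Napb. Leaving it out must raise the first set of estimates and lower the second. The count of 6 therefore does not test a difference by genotype. Without control 3, 17 of the 37 were above 0, and without control 1, 25.

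**Figure D5:**
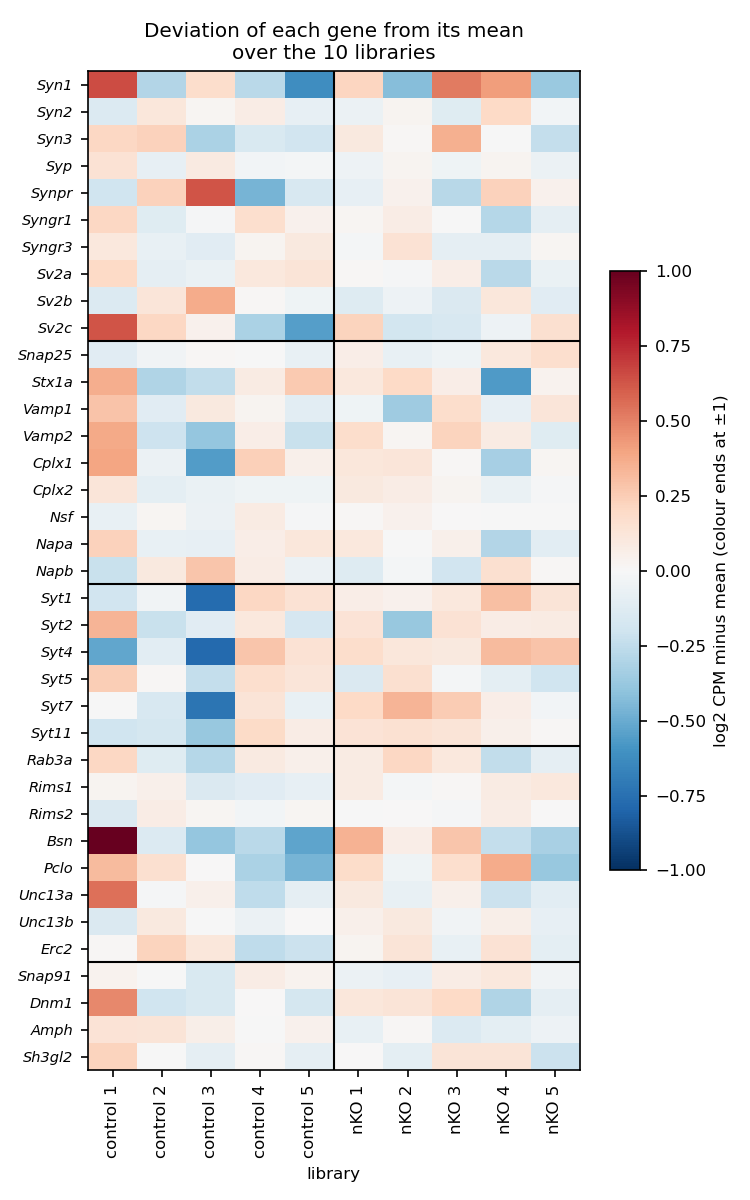
Deviation of log2 CPM from the gene's mean over all 10 libraries, with genes in rows by role, libraries in columns and colour from -1 to 1. Control 1 is high in most rows outside the synaptotagmins, control 3 is the lowest column in 5 of the 6 synaptotagmins, and no row separates the 5 nKO columns from the 5 controls.

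Vamp1 and Syt2 are the SNARE and sensor known from fast-spiking inhibitory neurons, which also express Pvalb. Over the 10 libraries, log2 CPM of Vamp1 and Syt2 went together with a Pearson r of 0.831 (permutation p = 0.00324, adjusted 0.0194) and a Spearman rho of 0.855 (permutation p = 0.00266, adjusted 0.0160). These were 6 relations computed together, each tested two-sided. Without control 1 and nKO 2, which were the ends in both genes in CPM, r was 0.505, so the relation rests in part on those 2. In TPM control 1 was not the highest library in either gene. Vamp1 was there at 127.0 TPM against 136.2 in nKO 3, and Syt2 at 32.1 TPM against 32.9 in nKO 4. The relation was not tested in TPM. With group means removed it was 0.866. Vamp1 with Pvalb had an r of 0.765 (permutation p = 0.00738, adjusted 0.0221) and a rho of 0.636 (permutation p = 0.0541, adjusted 0.108), and r was 0.718 without the same 2 libraries. The other relations, Syt2 and Cplx1 with Pvalb, Sv2c with the striatal marker Adora2a and Synpr with the interneuron marker Vip, had adjusted p from 0.0604 to 0.679 for r. Genotype groups overlapped in Pvalb, at 51.7 ± 5.80 CPM in controls and 50.2 ± 6.23 CPM in nKO (SD over 5 libraries each).

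The transcripts of the 37 genes were also tested one by one. Of 93 RefSeq transcripts 84 passed the filter. The edgeR test called 0 of 84 past an adjusted p of 0.05, beside 0% of 22343 transcripts tested, and 40 of the 84 were higher in nKO. At an unadjusted p under 0.05 there were 2, against 3.6% of all transcripts, with limma-voom also calling 0. They were NM_018801 of Syt7 and NM_001289546 of Amph. NM_018801 had 6.72, 3.31, 0.484, 2.08 and 4.18 TPM in controls and 21.3, 6.42, 9.82, 8.63 and 7.06 TPM in nKO, where nKO 1 was far above the others. NM_001289546 had 107, 121, 110.3, 114 and 109 TPM in controls and 101, 103, 106, 113 and 106 TPM in nKO, overlapping in TPM, while in CPM it was the 1 transcript of the 84 whose groups did not overlap, beside 0.953% of all transcripts. Relative transcript use was tested for 22 of the 37 genes, and 0 passed an adjusted p of 0.05, beside 0.0211% of 4732 genes.

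The rest of the presynaptic pathway was read from 6 further lists with 122 genes, of which 117 were tested. Again 0 passed the adjusted threshold (edgeR, smallest adjusted p 0.820), and 8 (6.84%) had an unadjusted p under 0.05, beside 5.65% of all tested genes. They were 4 higher and 4 lower in nKO, where all tested genes gave 3.36% and 2.29%. Of the 117, 59 were above 0 and 58 below, with a median log2 fold change of 0.0026. In 4 of the 117 the groups did not overlap in CPM, beside 1.38% of all tested genes. By list, 7 of 18 genes of vesicle loading were above 0, 9 of 13 other vesicle proteins, 10 of 24 other SNAREs and regulators, 7 of 9 other synaptotagmins, 12 of 24 other active zone genes and 14 of 29 other endocytic genes. Among those with the smallest p, Ston2, an endocytic adaptor for synaptotagmin, had 16.3 ± 1.18 CPM in controls and 20.9 ± 1.79 CPM in nKO (SD, 5 libraries per group), with every nKO library above every control. Ppfia2, liprin-alpha-2 of the active zone, had 213 ± 21.4 and 261 ± 24.3 CPM (SD over 5 libraries each) and also did not overlap. Their log2 fold changes were 0.36 ± 0.093 and 0.29 ± 0.086 (SE), each with an adjusted p of 0.820.

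Of 13 tested genes of the proton pump that powers vesicle loading, 3 were above 0 and 10 below, beside 47.8% of all tested genes above 0. Their median log2 fold change was -0.11, with 0 past the adjusted threshold. These 13 are a part of the vesicle loading list that was picked with the values known. On the TPM scale 3 of the 13 were higher in nKO and 10 lower, where 64.2% of all tested genes were higher. Atp6v0a1 had a log2 fold change of 0.23, Atp6v0d1 of -0.14 and Atp6v1b2 of -0.12. For Atp6v0d1 all nKO libraries were below all controls, and so they were for Atp6v1e1, at -0.12, which was picked after its values were seen. Doc2b, a calcium sensor related to synaptotagmins, was at 0.47, Snap47 at -0.14 and Stxbp5, the syntaxin-binding tomosyn, at 0.15. Svop and Scamp1, vesicle membrane proteins, were at -0.26 and 0.15, and the Rab3 effector Rph3a at 0.29. In the active zone list Lin7b was at -0.47 and Erc1 at 0.12. Clathrin light chain Clta was at -0.14 and the scaffold Itsn1 at 0.13. Syt9, Syt6 and Syt16 were at 0.26, 0.28 and -0.095. None of these genes had an adjusted p below 0.820.

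Markers of other cell types, including those of glia and of neighbouring brain regions, were measured beside these genes. Of the 7 astrocyte markers 7 were lower in nKO, with a median log2 fold change of -0.078 and 0 past the adjusted threshold, and they summed to 1770 to 1930 CPM in controls and 1683 to 1821 CPM in nKO. Oligodendrocyte markers summed to 1509 to 1941 CPM in controls and 1521 to 1866 CPM in nKO, and microglial markers to 194 to 221 CPM and 198 to 222 CPM. Striatal markers summed to 111 to 139 CPM and 120.0 to 143 CPM, and thalamic markers to 36.4 to 40.8 CPM and 35.4 to 41.4 CPM. Of 4 tested hippocampal markers 3 were above 0, with a median log2 fold change of 0.14 and 0 past the adjusted threshold. They summed to 49.3 CPM in control 3, 63.6 to 90.3 CPM in the other controls and 68.9 to 81.4 CPM in nKO, so control 3 was lowest here as for most of the synaptotagmins. Wfs1 was the largest part of that sum, with a control mean of 41.1 CPM against 7.06 to 10.4 CPM for the others. Whether these transcripts came from hippocampal tissue was not tested. Prox1, picked after its values were seen, was the gene of this list whose nKO libraries were all above all controls. Groups did not overlap in 1.38% of all tested genes. Prox1 was at 10.4 ± 0.557 CPM in controls and 13.2 ± 1.10 CPM in nKO (SD over 5 libraries each), with an adjusted p of 0.820 (edgeR). The part of these markers in the presynaptic values was not tested.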

How the data were processed

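Per the labels' protocols, RNA of 10 cortices was extracted with TRIZOL, DNase-treated and made into stranded total RNA libraries. Salmon, bcl2fastq, DESeq2 and the build mm10 are named in the submitters' processing notes. The authors deposited, per the file headers, estimated counts and TPM for each gene and RefSeq transcript. Estimated counts were rounded and filtered with filterByExpr (minimum count 10, total 15), which left 14378 genes. They were TMM-scaled and tested in edgeR 4.0.16 under R 4.3.3 (robust quasi-likelihood F test), and p-values were adjusted by Benjamini-Hochberg over every tested feature. Transcript use was tested with diffSpliceDGE of edgeR. Correlations used 100000 resamples. Scripts were tested on simulated data. Alternatives were DESeq2 1.42.0, limma-voom (limma 3.58.1), other scalings and filters, libraries left out and, chosen after seeing the data, TPM.

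Groups follow the genotype label, and no batch is given. Within each role, genes with values for every library were the 3 with the smallest p and the one with the highest TPM, and within each further list the 3 with the smallest p were named. The genes and lists were chosen with earlier results of these data known. A score table for other genes was not used here.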

Additional observations from a re-analysis of the deposited data

Results flagged for a closer look

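In 74 checks of a gene within a group of 5 libraries, 7 showed 1 library set apart from the other 4 by most of the group's range. That was 9.46% of the checks, beside 8.32% of 28756 such checks over all tested genes. The rule is built so that chance marks about 1 in 20 independent checks, but these share the same 10 libraries and are not independent. Of these, 3 were in control 1, where Bsn was at 683 CPM against 208 to 274 CPM in the other controls, Dnm1 at 875 CPM against 544 to 628 CPM, and Cplx2 at 839 CPM against 721 to 749.6 CPM. Another 3 were in nKO 4, with Stx1a at 109.6 CPM against 166 to 187 CPM in the other nKO libraries, Cplx1 at 228 CPM against 289 to 311 CPM, and Rims2 at 301 CPM against 284 to 288 CPM. Syt2 in nKO 2 was at 57.3 CPM against 78.5 to 82.5 CPM. The rule was applied to CPM, and some of these libraries did not stand out in TPM. Cplx2 in control 1 was then at 415.8 TPM, the lowest of the 10 libraries. Dnm1 in control 1 was at 706.6 TPM, below nKO 1, nKO 2 and nKO 3. Rims2 in nKO 4 was at 105.2 TPM, below nKO 2 at 105.9 TPM. Bsn stayed highest in control 1, and Stx1a, Cplx1 and Syt2 stayed lowest of nKO in the libraries named. Control 1 and nKO 4 were also the ends of the first principal component of all genes.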

How the results depend on the processing

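Members past 5% stayed at 0 under every alternative run, and the lowest adjusted p of any of the 37 was 0.485, with effective length offsets. Genes past 5% numbered 5 with DESeq2 and 2 to 3 with a library left out. The members above 0 numbered 15 to 25 with a library left out, and their median log2 fold change ran from -0.011 to 0.039. The median of the other presynaptic genes was 0.071 in TPM, against 0.0026 in counts, and -0.018 to 0.027 with a library left out. Syt7 and Amph had an unadjusted p above 0.05 without control 2, nKO 1 or nKO 3, as did Syt7 without nKO 2 and Amph without control 1.

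Of 666 values of single genes under alternatives, 596 kept their direction and 70 reversed, in 19 genes. With library size alone Syn2 was at -0.0059, Snap91 at -0.0090 and Dnm1 at -0.0020, and with a CPM of at least 1 in 5 libraries at -0.0011, -0.0045 and -0.00063. Effective length offsets put Syn2 at -0.0035, Syngr3 at 0.065, Stx1a at 0.023, Cplx1 at 0.0085, Rims2 at -0.00035 and Bsn at 0.11. With limma-voom Sv2c was at 0.0031 and Bsn at 0.061. DESeq2 size factors gave Snap91 -0.0031 and Dnm1 -0.00061, the DESeq2 test -0.0029 and -0.00065, and no count filter Snap91 -0.0023. Without control 1 and nKO 4, Syn2 was at -0.086, Syngr3 at 0.019, Sv2c at 0.14, Stx1a at 0.13, Vamp1 at 0.0018, Cplx1 at 0.11, Nsf at -0.0037, Rims2 at -0.032, Bsn at 0.43, Unc13a at 0.056, Unc13b at -0.010 and Snap91 at -0.023. With 1 library left out, log2 fold changes crossed 0 in Syn2 (-0.053 to 0.037), Syn3 (-0.0034 to 0.16), Synpr (-0.17 to 0.13), Syngr3 (-0.062 to 0.0086), Sv2c (-0.17 to 0.13), Stx1a (-0.14 to 0.040), Cplx1 (-0.17 to 0.049), Syt2 (-0.029 to 0.12), Rab3a (-0.040 to 0.081), Rims2 (-0.0074 to 0.047), Bsn (-0.20 to 0.37), Unc13a (-0.19 to 0.025), Erc2 (-0.014 to 0.11), Snap91 (-0.031 to 0.022), Dnm1 (-0.047 to 0.15) and Sh3gl2 (-0.060 to 0.039). The cause was not tested. No paired analysis was possible because the labels tie no control animal to an nKO animal, and the numbers 1 to 5 used here in both groups only follow the order of the libraries. With 5 libraries per group, the intervals of Syn1, Bsn, Syt4 and Syt7 allow a change of over 1.5-fold.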
